A study of Mus musculus with 3 samples.

Results

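Histone genes of the mouse were examined as sources of the small RNAs that accompany Tdrd1 and Mili in the testis. The members are the protein-coding genes of the GENCODE vM21 annotation whose symbol starts with Hist1h, Hist2h, Hist3h or Hist4h (67 clustered histone genes) or with H2af, H3f3 or H1f (15 replacement histone genes), 82 of 21951 protein-coding genes. A small RNA was counted for a gene when its whole sequence matched a transcript of the gene exactly and the gene lies on the chromosome given for the sequence. By that rule, 4065 distinct sequences lay on the sense strand of histone genes and 50 on the antisense strand, out of 2219118 distinct sequences deposited for the series.

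The series holds 3 small RNA libraries from testes of C57BL/6 mice, 1 per group and without replicates: RNA bound to Tdrd1 in adult testis, RNA bound to Mili in adult wild-type testis, and RNA bound to Mili in testis of Tdrd1 knockouts aged 15 days after birth. Age and genotype thus both separate the knockout library from the wild-type Mili library. The kind of knockout allele and the number of animals are not stated in the labels. All libraries were made from immunoprecipitates, from RNA of about 28 to 30 nt cut from a gel. The deposited list names each distinct sequence once with 1 genomic position and carries no library, no read number and no strand. The depth of each library is therefore unknown, Tdrd1 could not be checked in its knockout, and every value below describes the pooled list, in which each distinct sequence counts once however often it was read.

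piRNAs are small RNAs of germ cells that guide Piwi proteins such as Mili. Their 5′ ends often carry uridine, and in the mouse testis they derive from transposons, from dedicated long transcripts and from parts of ordinary mRNAs. Clustered histone genes encode the histones made in bulk during DNA replication. Their short, intronless mRNAs end in a conserved stem-loop in place of a poly(A) tail. Replacement histone genes are mostly single genes, and many have introns and polyadenylated mRNAs and are expressed outside S phase. Male germ cells also make histone forms of their own, before most histones give way to transition proteins and protamines.

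Small RNAs that carry the main features of the set are shown first, 5′ to 3′ and with T for U as deposited. For 2 clustered and 3 replacement genes among those with most sense sequences, the sequence printed has the 5′ end that occurred with the largest number of different 3′ ends, and the first base is in capitals.
Hist1h1a: Tgtttattcatcagcaaccatgtcggagac
Hist1h2aa: Gaagacgcgcattactcctcgccacctgca
H1f0: Tgctagtggagcgggagagcagatcgcgag
H3f3b: Aaaaaaaagtaaacctggcagctatagaat
H1fx: Gagaaggaagaaccgcaagaagaaccagcc
Each was 30 nt long. On build 37 the Hist1h1a sequence lay at chr13:23855567-23855596 (plus strand, across the start of the coding sequence). The Hist1h2aa sequence lay at chr13:24026555-24026584 (plus strand, coding sequence) and the H1f0 sequence at chr15:78859047-78859076 (plus strand, 5′ UTR). The H3f3b sequence lay at chr11:115884245-115884274 (minus strand, 3′ UTR) and the H1fx sequence at chr6:87931220-87931249 (minus strand, coding sequence). The numbers of different 3′ ends at these 5′ ends were 9 for Hist1h1a, 8 for Hist1h2aa, 6 for H1f0, 5 for H3f3b and 5 for H1fx. Of these 5 sequences, 2 start with U.

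Clustered histone genes were the denser source. Levels are given throughout as numbers of distinct sense sequences per kb of the gene's merged exons, since the clustered genes are short (median 539 nt of exon) and the replacement genes long (1633 nt). The median level was 26.2 per kb over the 67 clustered genes, 4.37 over the 15 replacement genes and 2.89 over all 21951 protein-coding genes. The quartiles of the genes lay at 7.50 and 89.6 per kb among clustered and at 0.282 and 36.6 among replacement genes, so the 2 classes overlapped widely. At least 1 sense sequence was found for 58 of 67 clustered genes (86.6%) and 11 of 15 replacement genes (73.3%), beside 71% of all protein-coding genes. At least 5 sense sequences were found for 50 clustered and 8 replacement genes, beside 57.6% of all protein-coding genes. At the upper end, 15 of 67 clustered genes (22.4%) and 0 of 15 replacement genes reached 100 sequences per kb, a level reached by 1.02% of protein-coding genes. No test between the classes was made, because the genes of a class are not replicates and all libraries are pooled.

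**Figure D1:**
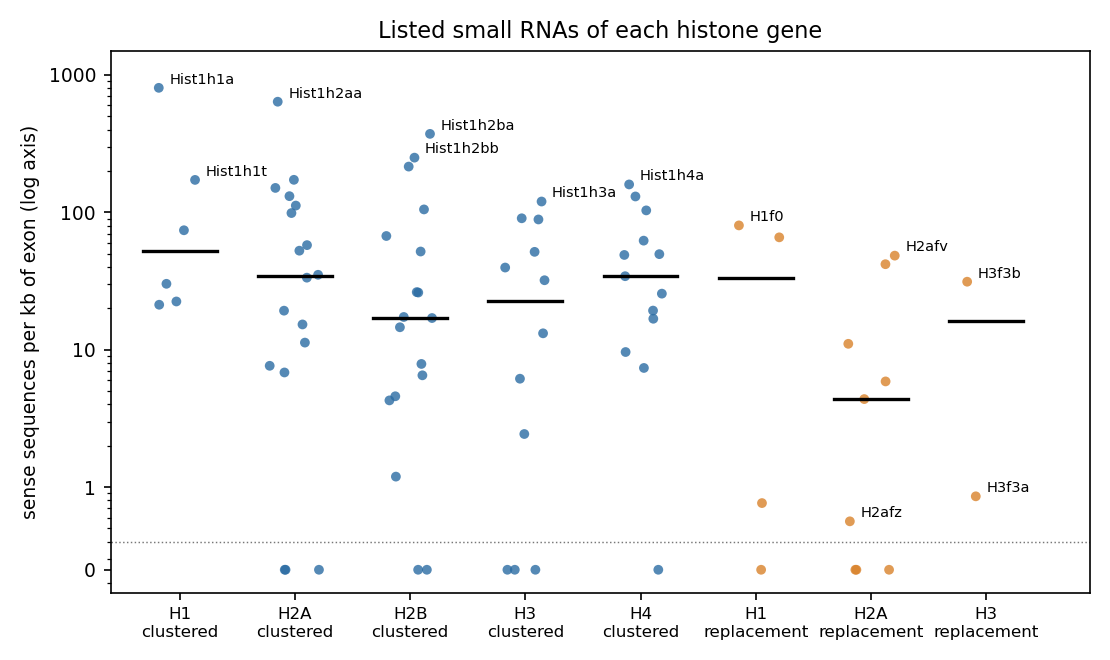
Distinct sense sequences per kb of exon (log axis, genes without a sequence at the level marked 0) for each histone gene, by histone class; 1 point per gene, blue clustered, orange replacement, black bars medians over genes. Hist1h1a at 806 and Hist1h2aa at 638 per kb stand above all other members, and the highest replacement gene, H1f0, reaches 80.3.

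The linker histone gene Hist1h1a was the densest of all 21951 protein-coding genes, at 806 sequences per kb. Its 597 sense sequences spanned chr13:23855535-23856273 on the plus strand and covered 92.6% of the bases of its transcript of 741 nt. They began at 223 different positions, and the 5′ end shared by most of them carried 9 sequences. By part of the transcript, 58 had their midpoint in the 5′ UTR, 470 in the coding sequence and 69 in the 48 nt annotated as 3′ UTR. U was the first base of 40.0% of them (exact Clopper-Pearson 95% interval 36.1 to 44.1%), and none lay on the antisense strand. These intervals, here and below, cover counting error only, and overlapping sequences are not independent molecules.

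The testis-specific core histone pair Hist1h2aa (the testis form of H2A) and Hist1h2ba (the testis form of H2B) came next among the members. They are neighbours on chromosome 13, on opposite strands. Hist1h2aa held 249 sense sequences at 638 per kb, rank 3 of all protein-coding genes, at chr13:24026338-24026716 on the plus strand. Its sequences covered 85.9% of the 390 nt of its transcript, which is annotated as coding sequence only, and 29.7% of them started with U. Hist1h2ba held 143 at 372 per kb, rank 5 of all, at chr13:24025795-24026007 on the minus strand, with 42.0% starting with U. Hist1h1t, the testis-specific linker histone of spermatocytes, held 157 at 172 per kb at chr13:23787691-23788375 on the plus strand, with 59.9% starting with U. Its sequences lay in the 5′ UTR (24) and the coding sequence (133), and none in its 230 nt of 3′ UTR.

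Not every histone form of germ cells had small RNAs in the list. H1fnt, a linker histone of spermatids, matched 1 sense sequence, and the 3 genes H2afb1, H2afb2 and H2afb3, which encode a short H2A of spermatids on the X chromosome, matched 0. H1foo, the linker histone of oocytes, matched 0 sense and 2 antisense sequences. Of the 322 windows of 27 nt in each H2afb gene, only 81 (H2afb1), 215 (H2afb2) and 90 (H2afb3) have 1 place in the annotated transcripts. All 1282 windows of H1fnt and all 1262 of H1foo do. Because the list holds no read numbers, a missing sequence says that none was listed, not that none was made, and no share or upper limit can be put on it.

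**Figure D2:**
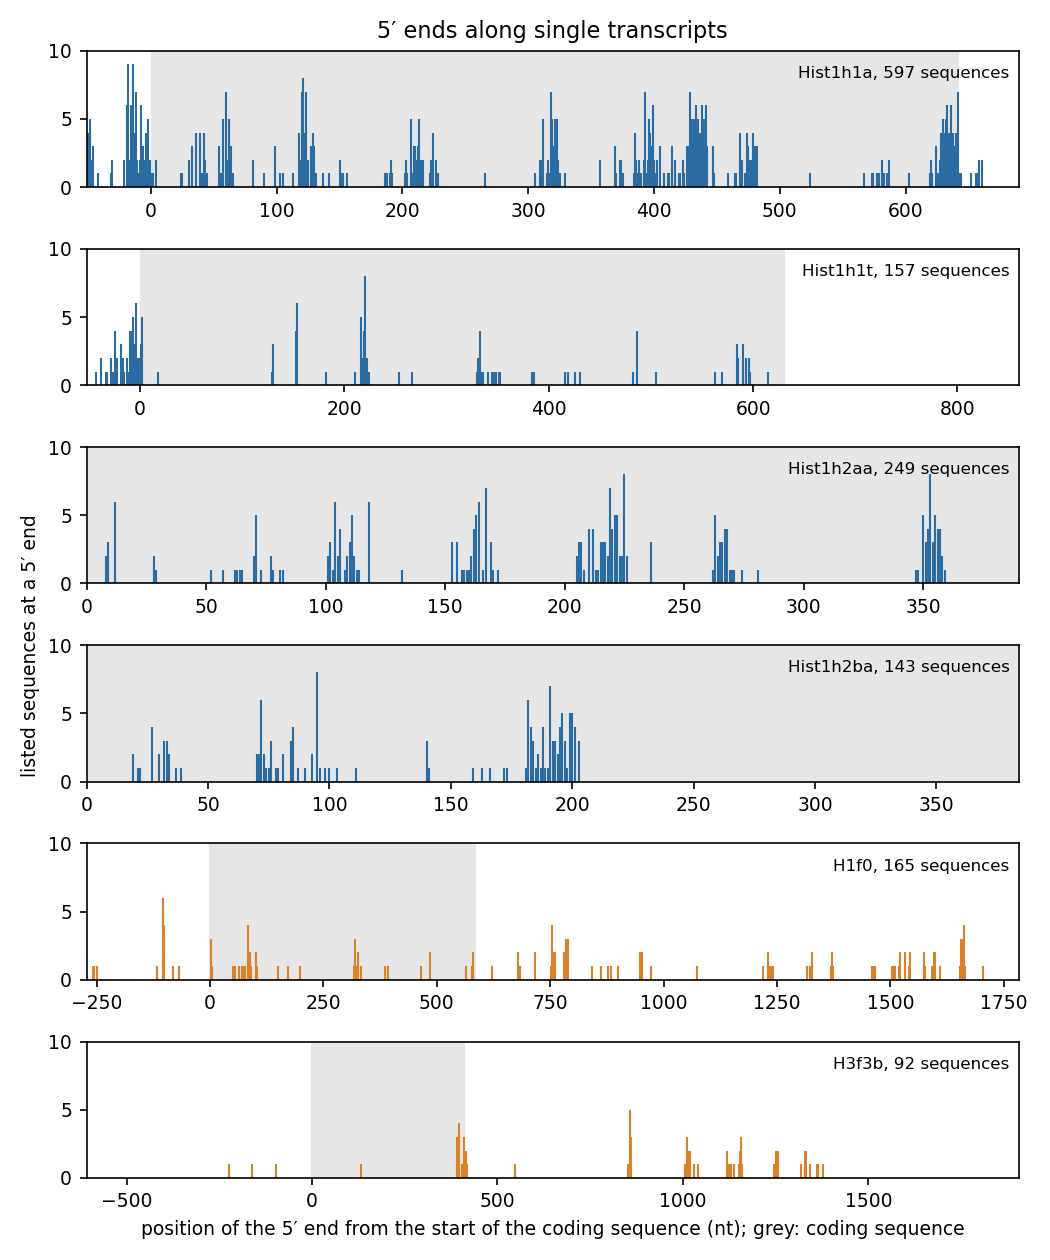
Number of listed sequences that start at each position of 6 histone transcripts (x, nt from the start of the coding sequence; y, sequences per 5′ end; grey, coding sequence; blue clustered, orange replacement genes). Starts run along the whole of Hist1h1a and Hist1h2aa, and reach far into the 3′ UTR in H1f0 and H3f3b. In Hist1h1t, 52 of 157 sequences hold the start codon, and its sequences cover 54.4% of the transcript.

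A further 6 clustered genes completed the 10 with most sense sequences. Hist3h2a, an H2A gene of chromosome 11, held 370 at 172 per kb (chr11:58768195-58769397, plus strand), but 368 of them also matched, in sense, a transcript of Trim17, so the 2 genes cannot be told apart there. Hist1h1d, a linker histone gene with a long annotated transcript, held 224 at 30.2 per kb (chr13:23645941-23647639, plus strand). Hist4h4, a lone H4 gene on chromosome 6, held 142 at 49.6 per kb (chr6:136752578-136752930, minus strand). The H2B gene Hist1h2bb held 127 at 250.0 per kb (chr13:23838642-23839076, plus strand), rank 13 of all protein-coding genes. Hist1h4a, an H4 gene, held 86 at 160 per kb (chr13:23852679-23853077, minus strand), and the H2A gene Hist1h2ac held 83 at 33.4 per kb (chr13:23774735-23775810, minus strand). Hist2h2bb of chromosome 3, with 82 sequences at 215 per kb, lay just below. All 82 are antisense to the annotated transcript Gm20628 and 47 match the noncoding RNA Gm42743 in sense, so that these 47 cannot be assigned to 1 of the 2 transcripts.

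A few genes carried much of the total. The top gene held 16.99% of the clustered sense sequences, the top 3 held 34.6% and the top 5 held 45.4%. Among replacement genes the same shares were 29.9%, 61.2% and 86.1%. The clustered median hardly depended on the top genes, at 26.2 per kb without Hist1h1a or without Hist3h2a. By histone type the clustered medians were 52.1 per kb for the 6 linker H1 genes, 34.3 for 18 H2A genes, 17.1 for 18 H2B genes, 22.6 for 12 H3 genes and 34.3 for 13 H4 genes. Each type held genes at or below 10 per kb except H1, whose 6 genes all had at least 35 sequences.

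Among replacement histones, the linker histone genes H1f0 and H1fx had the highest levels, while H1fnt (0.765 per kb) and H1foo (0) were among the lowest. H1f0, a linker histone of non-dividing cells, held 165 sense sequences at 80.3 per kb (chr15:78858894-78860879, plus strand), of which 22 lay in the 5′ UTR, 43 in the coding sequence and 100 in the 3′ UTR. U was the first base of 69.7% of them. H1fx, another replication-independent linker histone, held 80 at 65.7 per kb (chr6:87930558-87931631, minus strand), with 52 in the coding sequence and 31.3% starting with U. H1fx stands in a region rich in small RNAs: its 20-kb window held 1815 listed sequences, of which 4.41% were sense to H1fx, and 13 of its 80 also match the antisense-annotated transcript Gm5577 on the opposite strand.

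The paired genes for a same replacement histone differed. H3f3a and H3f3b encode the same replacement H3 protein, yet H3f3b held 93 sequences at 31.3 per kb (chr11:115883728-115885908, minus strand) and H3f3a held 3 at 0.856 per kb (chr1:182731907-182743733, minus strand). In H3f3b, 76 of the 92 sequences on its transcript with the longest coding sequence lay in the 3′ UTR. H2afv and H2afz encode the 2 forms of H2A.Z, the variant found at promoters. H2afv held 79 sequences at 48.4 per kb (chr11:6327442-6339442, minus strand), 54 of them in the coding sequence, while H2afz matched a single sequence, at 0.563 per kb (chr3:137527552-137527576, plus strand). The pairs also differ in how much of them can be told apart. Of the 27-nt windows, 1606 of 1631 in H2afv and 1057 of 1889 in H2afz have 1 place in the annotated transcripts. In H3f3b 2620 of 2993 do, and in H3f3a 2860 of 3572. The differences between paired genes were not tested, since each gene has 1 pooled value.

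The other H2A variants with sequences lay between H2afv and H2afz. H2afx, the variant phosphorylated at DNA breaks and on the sex body of spermatocytes, held 58 sequences at 41.9 per kb (chr9:44142793-44144146, plus strand), spread over the 5′ UTR (12), coding sequence (29) and 3′ UTR (17). The macroH2A genes H2afy and H2afy2, which encode H2A forms with a large extra domain, held 40 at 5.87 per kb (chr13:56175591-56237413, minus strand) and 24 at 11.0 per kb (chr10:61201695-61246854, minus strand). Of the 35 on the main transcript of H2afy, 34 lay in the coding sequence. H2afj, an H2A variant, held 8 at 4.37 per kb (chr6:136756964-136758582, plus strand). The single H1fnt sequence lay at chr15:98087515-98087537 on the minus strand.

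Sequences that 2 histone genes have in common were almost absent from the list, although the genes are near copies of each other. Of the 46694 distinct windows of 27 nt in clustered transcripts, 14.1% occur at 2 or more places of the annotated transcripts and 12.7% in 2 or more histone genes. Of the 3513 clustered sense sequences, 0 had 2 or more places, where places that overlapping genes share count once. A single sequence matched 2 histone genes, because the annotated transcripts of Hist1h2be and Hist1h1e overlap there.
Hist1h2be and Hist1h1e: Agaaggattcttagaagctgccatcaac
It lies at chr13:23712857-23712884 on the minus strand, and the capital marks its first base. Among replacement genes, 2 of the 554 sequences matching on any chromosome had several places, and both were listed on another chromosome. The authors' treatment of sequences with several genomic positions is not given in the sources used, and no genome of build 37 was used to search for copies outside annotated transcripts.

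The genes differ in how much of them can be seen in such a list. A window of 27 nt that has 1 place in the annotated transcripts is called a single-place window here. Such windows made up 63.0% of all windows of clustered genes (93.9% for H1, 51.2% for H2A, 56.0% for H2B, 42.4% for H3, 68.9% for H4) and 88.7% of those of replacement genes. Per 100 single-place windows there were 8.66 sequences in clustered and 2.15 in replacement genes. Over genes with at least 20 such windows, the medians were 9.68 for 65 clustered genes and 0.477 for 15 replacement genes. Summed over the genes of a type, the values were 17.1 for H2A, 8.97 for H1, 7.87 for H3, 6.80 for H4 and 5.18 for H2B. Summed per kb of exon, H2A (84.2) and H1 (83.3) were the highest clustered types too.

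The genes without a sense sequence were mostly those with few single-place windows. Of the 20 members with under 100 single-place windows, 8 had 0 sense sequences, and of the other 62 members 5 had 0. The 9 clustered genes at 0 were Hist1h2ao, Hist1h2ap, Hist1h2bq, Hist1h2br, Hist1h3i, Hist1h4m, Hist2h2aa2, Hist2h3c1 and Hist2h3c2. Hist2h2aa2 has 0 single-place windows. Hist2h3c1, an H3 gene of chromosome 3, has 1153 such windows, Hist2h3c2 has 354 and the H2B gene Hist1h2br has 227, and all 3 matched 0 sequences. Their annotated 3′ UTRs are long, at 1213, 423 and 823 nt. Within the 3′ UTR, clustered genes held 0.472 sequences per 100 single-place windows. How many windows of these 3 genes lie there was not counted, and the cause of their 0 counts was not tested. Some clustered genes with longer 3′ UTRs held many sequences. Hist1h1d (4931 nt) held 224, with 4 centred in its 3′ UTR, and Hist4h4 (2515 nt) held 142, with 0 there. A low number of windows did not always go with few sequences: Hist1h2ag held 73 sequences with 91 windows and Hist1h2ah held 40 with 33.

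**Figure D3:**
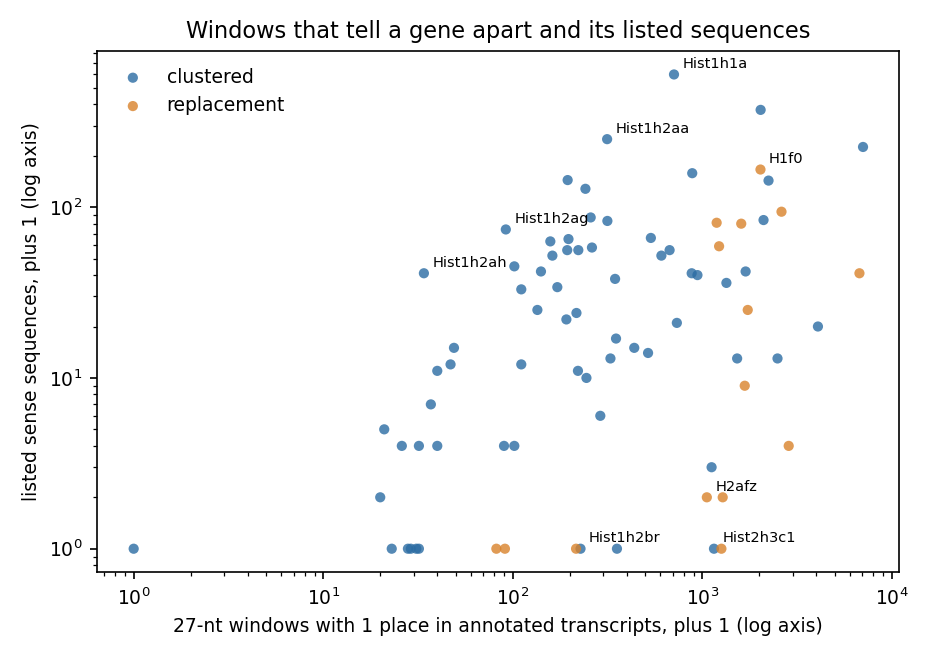
Listed sense sequences of each histone gene against its number of 27-nt windows with 1 place in annotated transcripts, both plus 1 on log axes; 1 point per gene, blue clustered, orange replacement. Genes at the bottom left, with few such windows, have few or no sequences. Hist2h3c1, with an annotated 3′ UTR of 1213 nt, has 1153 windows and 0 sequences, and the cause was not tested.

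The small RNAs of clustered genes lay in the coding sequence and at its start. By their midpoints, 80.1% of clustered sequences lay in the coding sequence (exact interval 78.7 to 81.4%), 10.7% in the 5′ UTR and 9.19% in the 3′ UTR, whereas these parts make up 41.1%, 7.13% and 51.8% of the transcripts' length. Of the single-place windows, only 21.98% lie in the coding sequence and 68.2% in the 3′ UTR. Replacement histones gave 44.7% from the coding sequence and 46.5% from the 3′ UTR, close to these parts' shares of length (43.0% and 44.8%). Over all protein-coding genes 42.3% lay in the coding sequence and 53.7% in the 3′ UTR. When only sequences centred in the coding sequence were counted per kb of coding sequence, the medians were 36.5 for clustered genes, 7.69 for replacement genes and 3.04 for all protein-coding genes. On that scale 21 clustered genes and 1 replacement gene, H2afv at 140, reached 100 per kb, beside 2.36% of all protein-coding genes, and Hist1h1a at 732 per kb stood at rank 2 of all protein-coding genes.

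Many clustered sequences held the start codon of their own mRNA. The annotated ATG lay inside 995 of 3512 clustered sequences (28.3%), in 42 genes, against 20 of 546 replacement sequences (3.66%), all in H2afx, and 8566 of 1066600 sequences of all protein-coding genes (0.803%). These shares are not corrected for transcript length. The median exon length was 539 nt in clustered, 1633 nt in replacement and 3498 nt in all protein-coding genes. Examples follow with the start codon in capitals.
Hist1h1a: tgtttattcatcagcaaccATGtcggagac
Hist3h2a: tggttatcagtggaagATGtctggtcgtg
Hist4h4: taatATGtcaggacgaggaaaaggcggcaa
Hist1h2ah: taagttgtacaatATGtctggacgcggtaa
The Hist3h2a sequence lies at chr11:58768224-58768252 (plus strand), the Hist4h4 sequence at chr6:136752875-136752904 (minus strand) and the Hist1h2ah sequence at chr13:22127405-22127434 (minus strand). All 40 sequences of Hist1h2ah and all 11 of Hist1h4n held the start codon, as did 49 of 73 in Hist1h2ag, 49 of 65 in Hist1h3f, 60 of 142 in Hist4h4, 104 of 370 in Hist3h2a and 83 of 597 in Hist1h1a. The median 5′ end of these sequences lay 9 nt before the ATG (quartiles 5 and 14 nt), and 63.4% of them started with U. In 11 of the 67 clustered genes, Hist1h2aa and Hist1h2ba among them, no 5′ UTR is annotated, so that a sequence reaching back past the start codon could not be matched.

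The start region was dense also when set against the windows that can be told apart. Sequences across the start of the coding sequence numbered 98.5 per 100 single-place windows in clustered genes (986 sequences), although these windows are only 2.61% of the single-place windows. The value was 3.21 within the 5′ UTR, 26.7 within the coding sequence, 32.6 across its end and 0.472 within the 3′ UTR. The 5′ UTR value includes long annotated 5′ UTRs, such as 1828 nt in Hist1h1d, beside a median of 38 nt where annotated. Without Hist1h1a the value at the start was 92.6, and without Hist3h2a it was 89.9. With the coding sequence cut into 5 equal parts from start to end and counted by midpoint, the values were 45.8, 34.7, 34.3, 31.1 and 17.7 per 100 single-place windows. Without Hist1h1a they were 43.9, 29.8, 33.3, 19.2 and 17.3, so that this gene sets much of the value in the fourth part. Replacement genes had 5.15, 4.58, 2.43, 2.86 and 3.36 in the same parts, and 7.69 across the start of the coding sequence (20 sequences). Counted by midpoint, the first part includes many of the sequences across the start, and the last part includes sequences across the end. The first value is thus not separate from the value at the start. Values without these sequences were not computed, so no decline past the start can be read from the 5 parts.

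Few clustered sequences reached into the stem-loop and hardly any lay past it. The histone 3′ stem-loop motif, 16 bases that fix the paired G and C at the foot of the stem and a few inner bases, was searched on the sense strand after the coding sequence. It was found in 45 of 52 clustered genes with at least 16 nt annotated there (86.5%), in 1 of 12 replacement genes (H2afx) and in 2.35% of all protein-coding genes. In the 45 clustered genes it began 21 to 58 nt after the stop codon (median 31). A motif match is a description of the letters and was not tested as a folded structure. Hist1h1a has no match in its annotated 3′ UTR.

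Of 2212 sense sequences in the 45 genes, 46 (2.08%, exact interval 1.53 to 2.76%) overlapped the motif, in 15 genes, and 19 of them were in Hist1h4c. They ended 1 to 9 bases inside it, none began inside it, and 0 contained the whole motif (upper limit of the exact interval 0.167%), although 1.23% of the single-place windows do. For 4 genes chosen after their values were seen, the sequence of at most 30 nt that reaches furthest into it is shown, with the bases inside the motif in capitals. The sequence that reaches 9 bases in, of Hist1h4j, is 32 nt long and is not shown.
Hist1h4a: taatttgtattttctaaccaaaGGCCCT
Hist1h4c: aacgatttccactgtcaacaaaaGGCCCTT
Hist3h2a: tgcgacttttacagacaccaaaGGCTCTT
Hist1h2bf: taacacacactcctaacccaaaGGCTCTTT
They lie at chr13:23852679-23852706 (Hist1h4a, minus strand), chr13:23789967-23789996 (Hist1h4c, minus strand), chr11:58768652-58768680 (Hist3h2a, plus strand) and chr13:23665642-23665671 (Hist1h2bf, minus strand), all in the 3′ UTR.

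Beyond the stem-loop the annotated transcripts were nearly empty of small RNAs. There, 19 sequences in 8 genes stood against 21023 single-place windows, 0.0904 per 100, and 9 of the 19 were in Hist1h4i. The values before it were 2.64 within the 5′ UTR, 105 across the start of the coding sequence, 21.3 within it, 28.3 across its end and 18.3 between its end and the motif, and 3.25 for sequences overlapping the motif. Without Hist1h4c the last value was 1.96 (27 sequences). The 5′ UTR value depended on long annotated 5′ UTRs. In the 38 genes with a 5′ UTR of 100 nt or less it was 13.5 (61 sequences), beside 97.2 across the start of the coding sequence. The processed histone mRNA ends just after the stem-loop. The annotated transcripts run on after the motif for 3 nt (Hist1h2ap, Hist1h4m) to 4884 nt (Hist1h1d). Which RNA forms carry that sequence, and whether they were present in these testes, was not measured here. The cause of the low value was not tested.

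**Figure D4:**
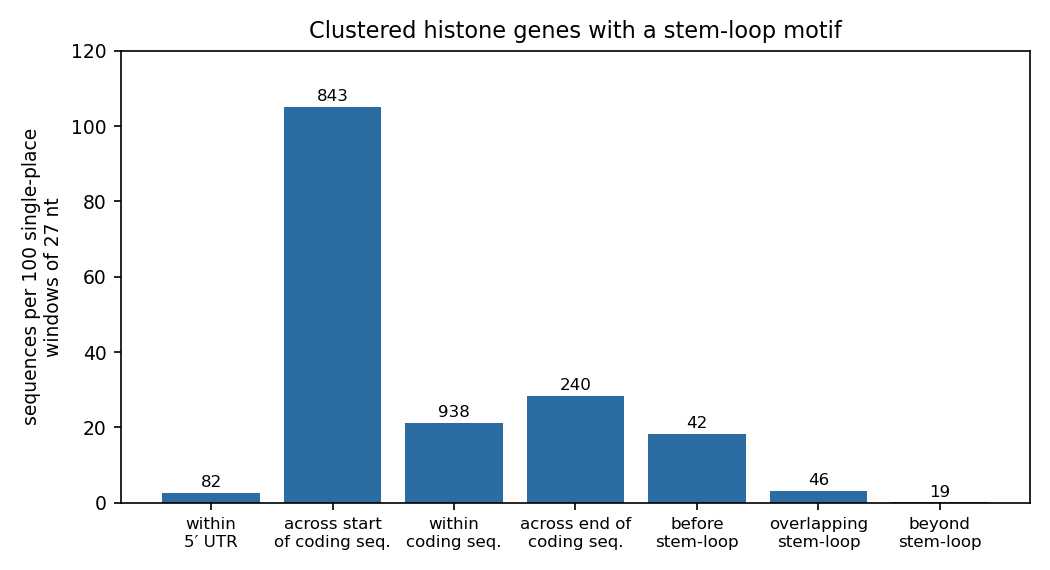
Sequences per 100 single-place windows of 27 nt in 7 regions of the 45 clustered histone genes with a stem-loop motif, from 5′ to 3′; the number above each bar is the number of sequences. The bar across the start of the coding sequence reaches 105, and the bar beyond the stem-loop is 0.0904.

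**Figure D5:**
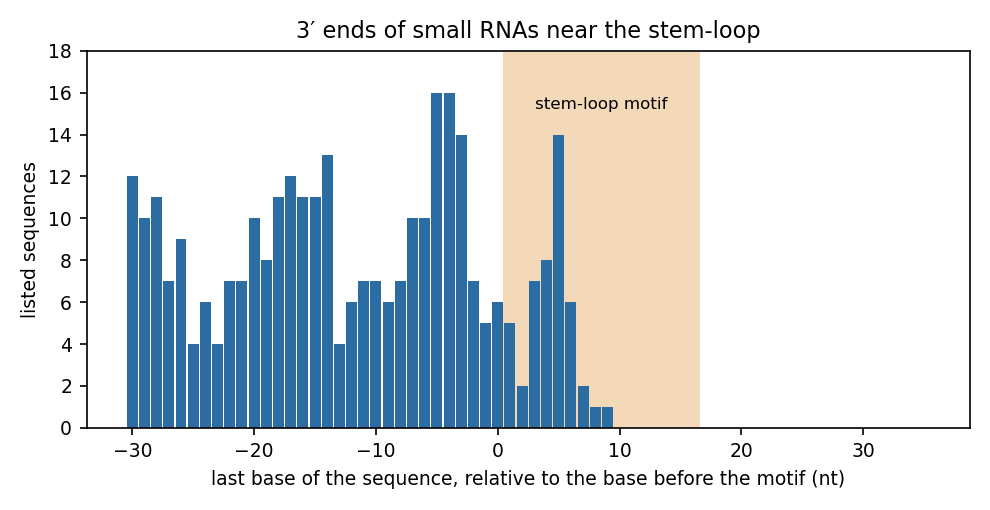
Number of listed sequences whose last base falls at each position from 30 nt before the stem-loop motif to beyond it (x, nt; 1 is the first base of the motif; orange band, the 16 bases of the motif). Ends occur up to 9 bases into the motif and none between there and the far end of the plotted range.

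First bases differed from those of other mRNA-derived sequences. U was first in 48.6% of clustered sequences (exact interval 47.0 to 50.3%) and 53.6% of replacement sequences (49.4 to 57.8%), below the 67.6% of all sense sequences of protein-coding genes. Counting each 5′ end once gave 38.7% for clustered genes, whose transcripts hold 23.9% U, and 51.2% for replacement genes, with 23.4% U. These U shares are of whole annotated transcripts, also of parts with hardly any small RNAs. They differed among clustered genes: 17.3% in Hist1h1a, 17.7% in Hist1h2aa, 31.6% in Hist1h1d and 34.7% in Hist4h4. The U share of the covered parts alone was not computed. In clustered genes a 5′ end at U occurred with 2.81 different 3′ ends on average, and ends at other bases with 1.73 (G), 1.74 (C) and 2.10 (A). By part, U was first in 72.7% of clustered sequences centred in the 5′ UTR, 48.1% in the coding sequence and 25.4% in the 3′ UTR. The last share differs within that part: U was first in 14.1% of the sequences across the end of the coding sequence and in 50.4% of the 121 that lie wholly in the 3′ UTR. In replacement genes the 3′ UTR had the highest share (68.5%) and the coding sequence the lowest (36.5%). A stood at position 10 in 27.1% of clustered and 32.4% of replacement sequences, beside 32.1% over all genes.

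Lengths lay in the range of piRNAs, in libraries made from RNA cut from a gel at about 28 to 30 nt. The commonest length was 27 nt and the mean 27.4 nt in both classes, as over all protein-coding genes. Of clustered sequences 98.0% and of replacement sequences 99.6% were 24 to 32 nt long, beside 99.2% over all protein-coding genes. Sequences over 28 nt made up 27.6% of clustered (exact interval 26.1 to 29.1%) and 24.8% of replacement sequences (21.3 to 28.6%), beside 23.3% over all genes.

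Histone small RNAs were almost all sense. Antisense sequences made up 1.10% of clustered (exact interval 0.782 to 1.498%) and 1.95% of replacement sequences (0.979 to 3.47%), against 3.90% over all protein-coding genes. At least 1 antisense sequence was found for 14 clustered and 5 replacement genes, beside 30% of all protein-coding genes. Of the clustered genes, Hist3h2a had 9, Hist1h1d and Hist1h3a had 5 each, Hist1h3f had 4, and Hist1h2ad and Hist1h4i had 3 each. In H2afx 4 and in H1f0 3 were antisense. Pairs of opposite-strand sequences whose 5′ ends overlap by 10 nt, the spacing left by mutual Piwi cleavage, numbered 15 in all, fewer than the 29 at 12 nt or the 24 at 5 nt.

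On the chromosome, the histone sequences stood in the histone gene clusters themselves. The large cluster of chromosome 13 holds 54 members, 48 of them with sense sequences. Between chr13:21807636-24026716, 4650 sequences were listed, of which 2857 (61.4%) were sense to a histone gene. The cluster of chromosome 3 holds 10 members, and 128 of its 242 listed sequences were sense to 7 of them. The 20-kb window chr13:23840001-23860000 held 1123 sequences, 905 of them (80.6%) sense to 6 histone genes, Hist1h1a included, and ranked 137 of all windows. The window with Hist1h2aa and Hist1h2ba held 627, of which 62.5% were sense to that pair.

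Genes that act on histones or their mRNAs also gave small RNAs. All 9 genes found, of 10 symbols listed, for 3′ processing of histone mRNA had sense sequences, with a median of 25.5 per kb, from 8.89 for Slbp, which binds the stem-loop, to 98.9 for Casp8ap2, a factor of the histone locus body. All 18 histone chaperone genes had them, with a median of 15.99 per kb, from 5.34 for Chaf1b to 83.2 for Hjurp, the chaperone of the centromeric H3, and 70.1 for Nasp, a chaperone of H1 and H3. All 6 genes for the proteins that replace histones in spermatids had them, with a median of 13.3 per kb, from 3.47 for Hils1 to 82.4 for Tnp1. Over all protein-coding genes, 71% had a sense sequence and the median was 2.89 per kb.

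For the cell types of the testis, all 11 germ cell markers had sense sequences (median 75.1 per kb), as did 6 of 7 Sertoli cell markers (median 2.56), 3 of 5 Leydig cell markers (median 0.208) and 0 of 3 blood markers, beside 71% and a median of 2.89 per kb for all protein-coding genes. The part of other cell types in the histone values was not tested.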

How the data were processed

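The authors deposited 1 pooled list for the series: each distinct sequence with its chromosome, start and end on NCBI mouse build 37, per the file headers (mm9, per the submitters' processing notes). The deposited values are other than counts or levels: they name a sequence and its position. The sources used do not give the aligner, the mismatches allowed or the filters. The planned comparisons by library could not be made.

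Each sequence was searched exactly and over its whole length, on both strands, in GENCODE vM21 transcripts (build GRCm38, used for names and transcripts only), by an 18-nt seed, keeping matches on the listed chromosome. The search was tested on simulated data. A sequence counted for every gene it matched. The part of a transcript was taken by the midpoint, on annotated coding sequences. Coordinates are the list's, 1-based. Intervals are exact Clopper-Pearson 95% intervals (scipy 1.17.1, with pandas 2.3.3 and Python 3.11.15). No test was run, since there is 1 library per group.

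The members and gene lists were chosen with earlier results of these data known. Named were the 10 clustered genes with most sense sequences, up to 5 with most antisense sequences, every replacement gene with a sequence, the testis histones, and the ends of each list. Other genes were named after their values were seen. Alternatives were other ways of counting shared sequences, 5′ ends, lengths and parts. A further small RNA sequence is not reported here.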

Additional observations from a re-analysis of the deposited data

Results flagged for a closer look

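Data outside the counts above held some signal in each of the following cases, all with 1 pooled value and no control sample. Sense sequences shorter than 24 nt, below the piRNA range, numbered 71 of 4065 in histone genes (69 in clustered, 2 in replacement genes). Over all protein-coding genes they numbered 9000 of 1159330. Of the 71 in histone genes, the shortest had 18 nt, 69.0% started with U, 20 lay in Hist3h2a and 9 in Hist1h1a.

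Related genes that the choice by symbol left out also matched. H2bfm, an X-linked H2B gene, held 52 sense sequences (49.4 per kb). Cenpa, the H3 variant of centromeres, held 40 (6.83 per kb). H3f3aos, annotated antisense to H3f3a, held 52 on its own sense strand (17.1 per kb). The pseudogenes Hist3h2bb-ps and Hist1h2al held 49 (105 per kb) and 10 (29.5 per kb). None of the 18 H2al genes, which encode H2A forms of spermatids, matched a sense sequence: the number with one was 0.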

How the results depend on the processing

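A change in the order of the 2 classes was looked for among the alternative medians only, and 0 were found. Of 47 alternative values, 36 stayed within 1.5 times a median or within the exact 95% interval of a share, and 11 moved further. These limits are wide for few genes: the replacement share of 73.3% counted as kept at 53.3% with at least 5 sequences, and the clustered median of 26.2 at 36.5 per kb of coding sequence. With each 5′ end counted once, the clustered median fell to 16.1 per kb and the clustered share starting with U to 38.7%. Per kb of coding sequence the replacement median was 7.69. With at least 5 sequences asked for, 74.6% of clustered genes passed. Without Hist1h1a, 50.4% of clustered sequences started with U. By the 5′ end in place of the midpoint, clustered sequences divided into 31.1% 5′ UTR, 65.5% coding sequence and 3.44% 3′ UTR. Clustered sequences shared between histone genes were 0.0285%, those in more than 1 place 0%, and those shared with any annotated gene 11.8%, mostly Hist3h2a with Trim17. For replacement genes, the share between histone genes was 0% and that in more than 1 place 0.361%. The order of the classes thus differed between these counts. Asking for the whole stem-loop of 16 bases gave 0%. The cause was not tested.

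The alternatives with Hist1h1a or Hist3h2a left out, with places, with single-place windows and per kb of coding sequence were chosen after seeing the data. No paired analysis was possible because the list carries no library and each group has 1 library. Depth is unknown, so the number of distinct sequences of a gene cannot be corrected for it, and genes with few single-place windows have values of low precision.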
